A study of Mus musculus with 2 samples.

Results

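The 56 genes described here encode proteins that write, read or erase marks on DNA and histones or that move nucleosomes, measured in embryonic mouse kidney by total RNA-seq. They were taken as a list of gene symbols that was drawn up with earlier results of these data known, and all 56 matched an identifier in the gene tables, among 43346 mouse genes in all. The tissue was kidney of strain B6NCrl at embryonic day 15.5, with male and female embryos pooled, and both libraries belong to the only group, embryonic kidney. Replicate 1 was a pool from 78 embryos and replicate 2 a separate pool from 62 embryos, each library made from 10 ng of RNA, so each value is an average over all cell types of the organ and over many animals. No other genotype, treatment, age or tissue was measured, and the comparisons below are between genes, between transcripts of a gene and between the 2 pools. In tissue of mixed cells, fewer cells of a type and less RNA per cell cannot be told apart.

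These genes form complexes that act on each other's marks. Polycomb repressive complex 2 (PRC2) methylates histone H3 at lysine 27, and Polycomb repressive complex 1 (PRC1) binds that mark and ubiquitinates histone H2A; both keep developmental genes silent. DNA methyltransferases place and copy 5-methylcytosine at CpG sites, while TET enzymes oxidise it and the glycosylase TDG removes the oxidised base. Deacetylases, with the nucleosome remodelling and deacetylase complex (NuRD) as a main user, remove the acetyl groups that CBP and p300 add, and SWI/SNF complexes open nucleosomes with the energy of ATP. In the developing kidney, several of these factors are known from mouse genetics to be needed for nephron progenitors to renew and to differentiate.

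The tissue label held against its markers, and marker sums of several neighbouring tissues differed between the 2 pools. All 11 kidney markers were detected, with a summed level of 619 TPM (a transcript level adjusted for length and library size) in replicate 1 and 611 TPM in replicate 2, and 6 proliferation markers summed to 1258 and 1212 TPM. Summed markers of adrenal gland were 41.4 and 158 TPM, of liver 211 and 416 TPM, of neurons 36.9 and 69.2 TPM, and of skeletal muscle 294 and 158 TPM, all 5 of 5 genes detected in each list. Red cell markers summed to 8576 and 9670 TPM and macrophage markers to 127 and 141 TPM, again with 5 of 5 genes detected. Of the 3 germ cell markers none was detected, and their sums were 0.40 and 0.51 TPM. The libraries held 36244861 and 39415002 estimated reads on all features.

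Nearly the whole list was expressed. Pairs of values are given in the order replicate 1, replicate 2. Detection meant at least 1 TPM in each library, which 55 of the 56 genes reached, beside 62.3% of all 21461 protein-coding genes. The exception was Dnmt3l, the catalytically inactive partner of the de novo methyltransferases in germ cells, with 0.93 and 0.54 TPM from 14 and 10 reads (exact 95% Poisson intervals 7.65 to 23.5 and 4.80 to 18.4 reads, which cover counting error only). Across the 56 genes the median level was 30.8 ± 0.223 TPM (SD, n = 2 libraries), against 19.4 ± 0.117 TPM for the 13374 detected protein-coding genes. Of the list, 35 lay above the median of detected genes, and Mbd3, Hdac1, Hdac2, Uhrf1, Mta2 and Tdg ranked among its first 1202. Below 10 TPM in both libraries were 6 genes, namely Cbx8, Tet2, Sirt1, Hdac9, Cbx7 and Dnmt3l. TPM is adjusted for transcript length, so these levels can be set side by side between genes.

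**Figure D1:**
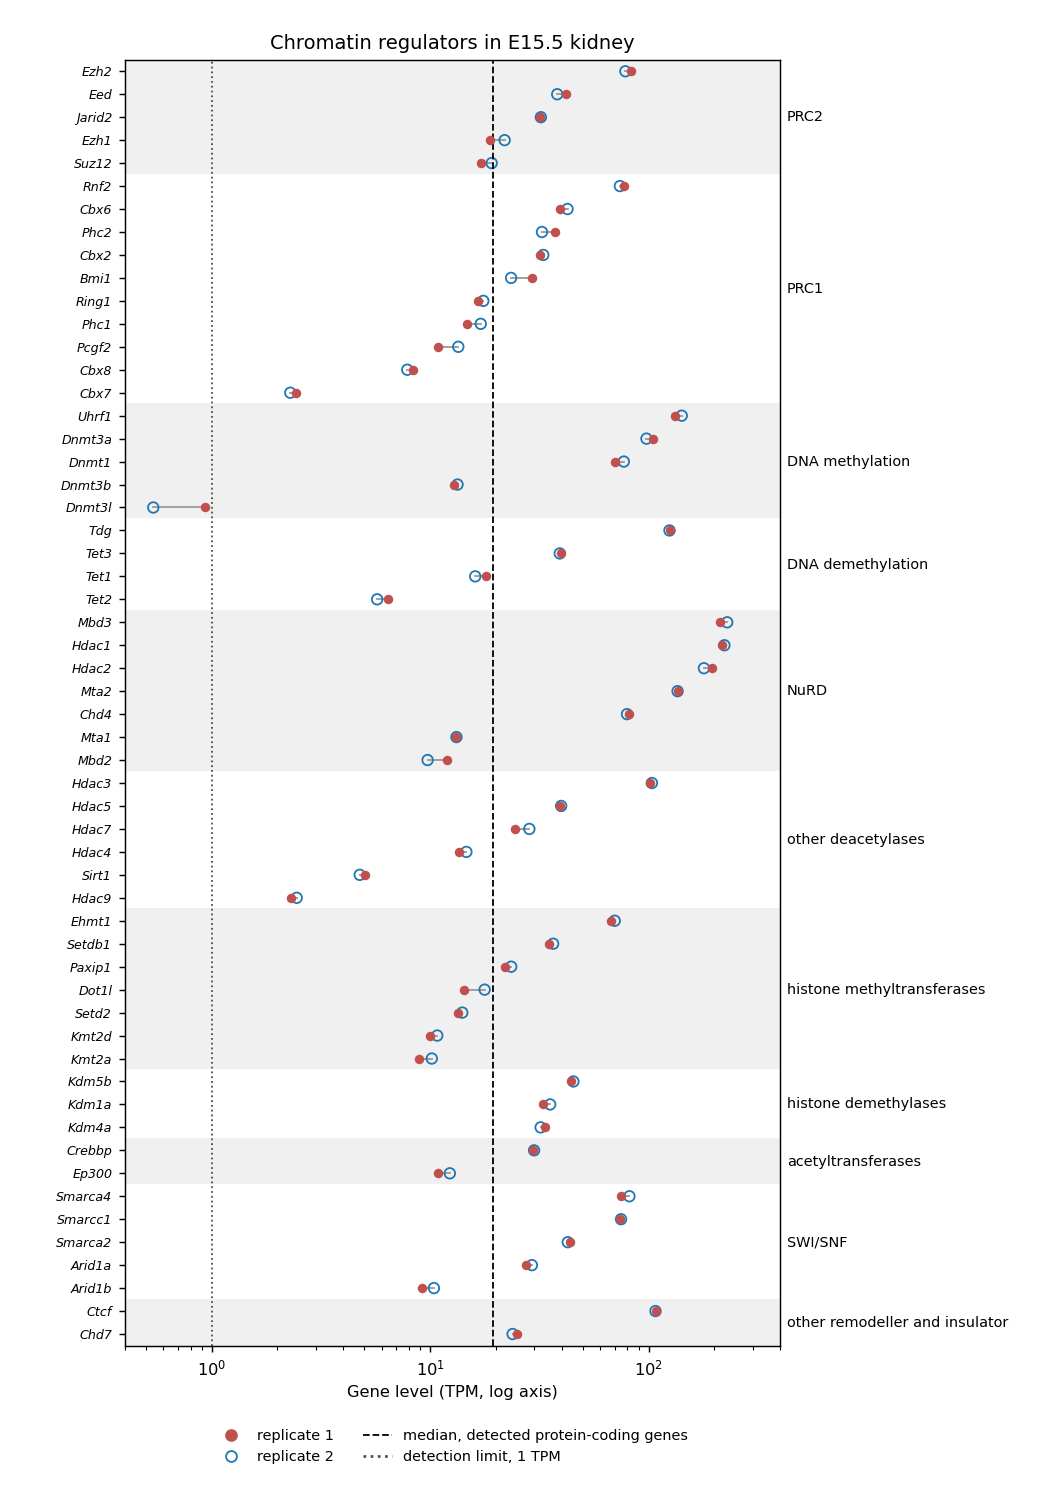
Level of each of the 56 genes in TPM on a log axis, by complex or enzyme class, with filled points for replicate 1 and open points for replicate 2. The dashed line marks the median of detected protein-coding genes and the dotted line 1 TPM; Dnmt3l alone lies left of it in both libraries, and the NuRD genes Mbd3, Hdac1 and Hdac2 lie farthest right.

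Ezh2 was the highest of the 5 listed PRC2 genes. The catalytic subunit Ezh2 was at 83.1 and 78.4 TPM in replicates 1 and 2, and the alternative catalytic subunit Ezh1, typical of cells that have stopped dividing, was at 18.8 and 21.9 TPM. The ratio of Ezh2 to Ezh1 was 4.43 in replicate 1 and 3.57 in replicate 2. Eed, which binds the finished mark and activates the enzyme, was at 41.7 and 38.2 TPM, and the scaffold subunit Suz12 at 17.1 and 19.1 TPM. Jarid2, an accessory subunit that helps recruit the complex, was at 31.9 and 32.2 TPM. Suz12, present in every PRC2, was thus the lowest of the 5 in replicate 1 and in replicate 2. Its 19.1 TPM in replicate 2 was above the 18.8 TPM of Ezh1 in replicate 1, so Suz12 and Ezh1 overlapped between libraries. The histone-binding subunit Rbbp7, shared with other complexes and not in the list of 56, was the highest of 6 further PRC2 genes at 440 and 431 TPM, and all 6 were detected.

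Within PRC1, paralogs differed in level. Of the catalytic ubiquitin ligases, Rnf2 (RING1B) was at 77.6 and 74.0 TPM and Ring1 at 16.6 and 17.5 TPM. Of their partners, Bmi1 was at 29.4 and 23.5 TPM and Pcgf2 (MEL18) at 10.9 and 13.5 TPM. Their relative Pcgf1, outside the list and named after its values were seen, was at 26.9 and 27.3 TPM, between the 2 values of Bmi1. Of the chromodomain subunits that read H3 lysine 27 methylation, Cbx6 was at 39.2 and 42.6 TPM, Cbx2 at 31.9 and 33.0 TPM, Cbx8 at 8.33 and 7.86 TPM and Cbx7 at 2.43 and 2.29 TPM. The span from Cbx6 to Cbx7 was 16.1-fold in replicate 1 and 18.6-fold in replicate 2, and Cbx6 and Cbx2 did not overlap. That span depends on the estimate used. In replicate 2 the 2.29 TPM of Cbx7 lay below its deposited interval of 2.42 to 5.38 TPM, and in replicate 1 the interval was 2.41 to 5.58 TPM. The deposited posterior mean TPM, another estimate of level, was 3.79 and 3.69 for Cbx7 and 39.2 and 42.7 for Cbx6. Of the polyhomeotic subunits, Phc2 was at 37.3 and 32.5 TPM and Phc1 at 14.8 and 17.1 TPM. All 9 further PRC1 genes were detected, with Yaf2, a subunit of the variant complexes, highest at 81.3 and 81.5 TPM. The 158-residue product of Cbx7 held 74.1% and 54.3% of its molecules, on 109 and 86.9 estimated reads, and the 251-residue product 9.87% and 26.4%, on 19.4 and 52.5. Cbx7 rests on 185 and 209 reads and shares 100 nt of exon with Apobec3 on the opposite strand, which was at 40.9 and 37.1 TPM, and the sources used here do not give whether counting used strand.

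Uhrf1 was the highest of the genes that place or maintain DNA methylation, followed by Dnmt3a and Dnmt1. Uhrf1, which finds hemimethylated CpG sites behind the replication fork and brings in Dnmt1, was at 133 and 142 TPM. Dnmt1, the enzyme that copies methylation to the new strand, was at 70.3 and 77.1 TPM. Dnmt3a, a de novo methyltransferase, was at 105 and 97.9 TPM, and its relative Dnmt3b at 12.8 and 13.4 TPM, a ratio of 8.19 in replicate 1 and 7.33 in replicate 2. Dnmt1 lay below Dnmt3a in both libraries by gene level, at -0.46 ± 0.166 on the log2(TPM + 1) scale. Counted only over transcripts with a complete coding sequence, a measure chosen after the values were seen, that difference was 0.05. This was below the replicate error of 0.27 at 30 to 100 TPM, the 95th percentile of the log2 ratio between libraries. All of the Dnmt1 level but 70.2% of the Dnmt3a level fell on such transcripts. Uhrf2, the relative of Uhrf1 outside the list, was at 71.5 and 69.0 TPM.

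The annotated starts of Dnmt1 and Dnmt3a transcripts lie at promoters of unlike CpG content. Where transcripts start was not measured here. They are shown because complete coding transcripts from the printed starts of each gene encode proteins of unlike length. The percentages below are the authors' deposited shares of a gene's molecules per transcript, summed over transcripts whose annotated start lies nearest to a RefSeq start and within 1000 nt of it. Dnmt3a transcripts from the upstream start held 52.8% and 50.3%. Among them, the transcript for the complete 908-residue protein held 25.2% and 28.8%. Others from this start have a retained intron (7.03% and 8.03%) or an incomplete coding sequence (one with 13.3% and 11.6%). Transcripts from a start 84764 nt farther on held 44.5% and 41.8%, and encode the 689-residue form known as Dnmt3a2. They have 0 and 16 nt of exon that no other Dnmt3a transcript contains, so their share rests largely on shared sequence. Dnmt1 transcripts from the main start held 69.3% and 64.8% and encode 1620 residues. An upstream start 6909 nt away held 29.4% and 33.9% and leads to a 1501-residue protein, for which 156 nt of exon were not shared with another Dnmt1 transcript. Shown are 200 bases before each start (RefSeq windows, GRCm38.p6, 5′ to 3′ on the gene's strand), with every CpG in capitals; the run for the downstream Dnmt3a start ends 17 bases before it, where the exon of another transcript begins.
Dnmt3a upstream start, chr12:3806780-3806979, plus strand: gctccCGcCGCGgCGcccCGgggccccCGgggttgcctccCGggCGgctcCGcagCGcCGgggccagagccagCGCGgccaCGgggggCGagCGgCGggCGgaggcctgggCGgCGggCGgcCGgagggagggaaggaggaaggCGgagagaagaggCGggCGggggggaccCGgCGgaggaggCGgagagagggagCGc
Dnmt3a downstream start, chr12:3891528-3891727, plus strand: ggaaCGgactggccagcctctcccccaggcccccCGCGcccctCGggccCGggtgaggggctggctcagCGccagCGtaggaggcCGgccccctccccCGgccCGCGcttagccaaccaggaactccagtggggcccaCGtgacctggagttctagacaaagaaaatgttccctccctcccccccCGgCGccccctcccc
Dnmt1 main start, chr9:20952980-20953179, minus strand: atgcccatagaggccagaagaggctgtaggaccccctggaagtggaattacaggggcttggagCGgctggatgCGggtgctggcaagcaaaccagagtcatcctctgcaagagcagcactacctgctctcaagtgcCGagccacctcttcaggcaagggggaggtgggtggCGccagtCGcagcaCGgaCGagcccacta
Dnmt1 upstream start, chr9:20959889-20960088, minus strand: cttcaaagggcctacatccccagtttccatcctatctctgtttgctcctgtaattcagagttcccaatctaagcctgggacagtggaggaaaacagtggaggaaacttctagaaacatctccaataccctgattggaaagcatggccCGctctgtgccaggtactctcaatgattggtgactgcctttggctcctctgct
The 4 runs hold 29, 14, 7 and 1 CpG. A further RefSeq start of Dnmt1, 356 nt downstream of the main one and with 33 CpG in its 300-base window, held 1.30% and 1.28%. Its transcript also leads to a 1501-residue product.

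The promoters of most listed genes held many CpG. In windows of 300 bases, 250 before to 50 after a start, the richest window of a gene held a median of 30 CpG over the 51 listed genes with a window, against 22 for 10445 detected protein-coding genes and 3 for 5872 protein-coding genes that were not detected. The letters searched were CG, which read the same on both strands, and 98.5% of the 67 windows of the list and 94.6% of all 32851 windows hold at least 1. Only 2 listed genes had no window above 6 CpG, Dnmt3l and Hdac9, which were also the lowest and the third lowest of the 56 by mean TPM. Among detected protein-coding genes 10.1% had no window above 6 CpG, and among those not detected 69.3%. These counts describe letters only; methylation was not measured.

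Dnmt3b was present mainly as a short form. The 776-residue product held 60.2% and 62.0% of Dnmt3b molecules, and the full 860-residue product 23.7% and 26.7%. The libraries did not overlap between these products, which rest on 731 and 841 reads for the shorter and 288 and 367 reads for the longer. The main transcript of the shorter product has 0 nt of exon that no other Dnmt3b transcript contains. The shorter form lacks a 20-residue stretch encoded on chr2:153670849-153670908 and a 63-residue stretch encoded by 2 neighbouring exons at chr2:153683608-153683677 and chr2:153684359-153684477. A further residue, encoded on chr2:153675726-153675728, makes up the difference in length, and only the longer stretches are printed. The second stretch lies in the catalytic domain, and the form without it is known in mouse as catalytically inactive. Among complete coding transcripts the first stretch was included in 31.9% and 29.6%, and the second in 26.8% and 31.4%. The omitted coding bases are given in capitals between 12 flanking coding bases in lower case (GENCODE M21 transcripts, 5′ to 3′ on the plus strand), since reads over these exons tell the products apart.
Dnmt3b first stretch: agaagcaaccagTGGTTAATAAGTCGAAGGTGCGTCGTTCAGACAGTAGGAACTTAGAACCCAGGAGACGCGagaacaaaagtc
Dnmt3b second stretch: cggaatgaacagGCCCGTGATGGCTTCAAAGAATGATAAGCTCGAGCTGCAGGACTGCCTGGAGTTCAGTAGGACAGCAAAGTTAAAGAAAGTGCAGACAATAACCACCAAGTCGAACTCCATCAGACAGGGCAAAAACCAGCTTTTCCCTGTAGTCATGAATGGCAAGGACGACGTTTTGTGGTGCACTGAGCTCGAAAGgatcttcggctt

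Of the genes that remove methylation, the glycosylase Tdg stood far above the TET enzymes. Tdg was at 125 TPM in both replicates (125.2 and 124.7). Tet3 was at 39.8 and 39.2 TPM, Tet1 at 17.98 and 16.1 TPM and Tet2 at 6.44 and 5.72 TPM, an order in which no neighbours overlapped. By gene level Tet1 exceeded Tet2 by 1.35 ± 0.00317 on the log2(TPM + 1) scale. Over complete coding transcripts the difference was -0.26, opposite in sign but below the replicate error of 0.79 at 3 to 10 TPM. The single annotated Tet2 transcript is complete, while the 2039-residue Tet1 transcript held 27.6% and 29.98% of Tet1 molecules. The leading Tet1 transcript was a noncoding one of 1505 nt with 53.4% and 51.8%. For Tet3 a noncoding transcript of 2523 nt led with 30.7% and 49.8%, a spread between libraries wider than that of the 1668-residue product, at 23.0% and 23.7%, and of the 1803-residue product, at 16.6% and 18.5%. All 4 further genes of this group were detected, with the metabolic enzyme Idh2, which makes the cofactor that TET enzymes use, at 520 and 547 TPM.

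NuRD had the highest median of the 11 classes, 136 ± 0.191 TPM over 7 genes. Mbd3, the subunit that holds the complex together, was at 213 and 229 TPM, while Mbd2, its alternative that binds methylated CpG, was at 11.9 and 9.74 TPM. Their ratio was 17.9 in replicate 1 and 23.5 in replicate 2, the widest of the pairs examined. Of Mbd2 molecules the 414-residue product held 56.2% and 66.9%, and the 249-residue product held 2.28% and 1.11%. The deacetylases Hdac1 and Hdac2 were at 217 and 223 TPM and at 194 and 179 TPM; Hdac1 was the higher in both libraries, but its lead of 0.23 ± 0.108 on the log2(TPM + 1) scale exceeded the replicate error of 0.25 only in replicate 2. Chd4, the ATPase of the complex, was at 81.3 and 79.7 TPM. Mta2 was at 136 TPM in both (136.1 and 135.9) and its paralog Mta1 at 13.1 and 13.2 TPM. Of the 4 further NuRD genes all were detected, with the alternative ATPase Chd3 highest at 44.7 and 50.8 TPM, and of 4 further methyl-CpG binding genes all were detected, led by Mbd1 at 23.5 and 25.1 TPM.

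Mbd3 itself was divided between products. The 253-residue product held 49.3% and 47.5% of Mbd3 molecules and the 285-residue product 10.8% and 11.3%. They differ by 96 coding bases at chr10:80399122-80399217, inside the methyl-CpG binding domain, which were included in 16.1% and 17.2% of complete coding Mbd3 transcripts. The transcript of the 253-residue product has 0 nt of exon that no other Mbd3 transcript contains. A further 31.4% and 31.9% of molecules were assigned to a transcript whose annotated coding sequence is incomplete. The 96 bases are in capitals, between 12 flanking coding bases in lower case (GENCODE M21, minus strand, 5′ to 3′).
Mbd3 optional stretch: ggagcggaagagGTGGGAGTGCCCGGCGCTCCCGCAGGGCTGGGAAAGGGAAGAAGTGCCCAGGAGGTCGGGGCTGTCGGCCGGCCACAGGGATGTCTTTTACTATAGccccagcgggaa

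Among the deacetylases outside NuRD, Hdac3, the enzyme of the nuclear receptor corepressors, was highest at 101 and 104 TPM. The class IIa enzymes, which shuttle between nucleus and cytoplasm, covered a wide range: Hdac5 was at 39.4 and 39.8 TPM, Hdac7 at 24.5 and 28.5 TPM, Hdac4 at 13.6 and 14.7 TPM and Hdac9 at 2.30 and 2.45 TPM, with no overlap between neighbours. The NAD-dependent deacetylase Sirt1 was at 5.03 and 4.76 TPM. Only 14.3% and 18.4% of Sirt1 molecules were assigned to its complete coding transcript, from 57.2 and 75.2 estimated reads. A transcript annotated for nonsense-mediated decay, the pathway that destroys messages with an early stop, held 66.4% and 60.8%. The complete coding transcript has 0 nt of exon that no other Sirt1 transcript contains, and the decay transcript 125 nt, so this split is uncertain. Hdac7 had 3 products of similar share: 944 residues with 18.5% and 16.4%, 953 residues with 12.6% and 21.5%, and 851 residues with 17.7% and 14.5%; their order differed between the libraries. The only Hdac9 transcript that was quantified encodes 588 residues, so the Hdac9 level is that of this transcript alone and no other form was measured. Of 10 further deacetylase and corepressor genes all were detected, with the corepressor Ncor1 highest at 140 and 136 TPM.

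Histone methyltransferases had the lowest class median, 16 ± 2.50 TPM over 7 genes. Ehmt1 (GLP), which methylates H3 lysine 9, was highest at 67.01 and 70.01 TPM. Setdb1, which methylates the same residue at transposons, was at a mean of 35.7 ± 1.195 TPM, and Paxip1, an adaptor of the H3 lysine 4 complexes, at 22.7 ± 1.11 TPM. Dot1l of H3 lysine 79 was at 16 ± 2.50 TPM and Setd2 of H3 lysine 36 at 13.8 ± 0.403 TPM. The H3 lysine 4 methyltransferases Kmt2a (8.90 and 10.2 TPM) and Kmt2d (9.94 and 10.8 TPM) were lowest and did not differ beyond replicate error, at -0.11 ± 0.0486. Over complete coding transcripts Kmt2a lay below Kmt2d by more than the replicate error, at -0.88. This measure leaves out 44.8% and 47.6% of Kmt2a molecules, on a 4336-nt transcript with an incomplete annotated coding sequence. By reads, which are not divided by length, 82.3% and 80.9% of Kmt2a was on complete coding transcripts, of 16439 and 16470 nt. Ehmt1 was split over 1289, 1243 and 1248 residues, at 27.4% and 24.8%, 16.1% and 16.2%, and 9.21% and 8.27% of molecules. All 13 further genes of this group that matched were detected, the highest being Dpy30, a shared subunit of the H3 lysine 4 complexes, at 171 TPM on average.

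The 3 histone demethylases lay close together. Kdm5b, which acts on H3 lysine 4, was at 44.1 and 45.3 TPM, Kdm1a (LSD1) of the same residue at 32.8 and 35.5 TPM and Kdm4a, which acts on lysines 9 and 36, at 33.6 and 32.1 TPM. Kdm1a and Kdm4a overlapped between libraries. Kdm1a had 2 products that differ by a 60-nt exon encoding 20 residues, at chr4:136582040-136582099. The 853-residue product without it held 40.6% and 44.5% of molecules and the 873-residue product with it 41.5% and 34.9%, so the leading product differed between the pools. The exon is in capitals between 12 flanking coding bases (GENCODE M21, minus strand, 5′ to 3′).
Kdm1a optional exon: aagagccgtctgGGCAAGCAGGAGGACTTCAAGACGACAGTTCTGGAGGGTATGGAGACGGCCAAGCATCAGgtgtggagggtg
All 9 further demethylase genes were detected, led by Kdm5a at 37.5 and 39.2 TPM.

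Acetyltransferase and SWI/SNF genes showed uneven paralogs as well. Crebbp (CBP) was at 29.5 and 29.9 TPM and Ep300 (p300) at 10.8 and 12.3 TPM, a ratio of 2.73 in replicate 1 and 2.43 in replicate 2. Of the alternative SWI/SNF ATPases, Smarca4 (BRG1) was at 74.6 and 81.8 TPM and Smarca2 (BRM) at 43.6 and 42.7 TPM. Of the Smarca2 molecules, the 1583-residue product held 15.5% and 13.8% and a 1460-nt transcript annotated for nonsense-mediated decay held 37.7% and 39.0%. Both transcripts have 0 nt of annotated exon that no other Smarca2 transcript contains. The 1583-residue product stood at 6.78 and 5.9 TPM. A complete coding transcript for only 236 residues held 12.9% and 13.2% of molecules. The core subunit Smarcc1 (BAF155) was at 73.7 and 74.9 TPM. Of the alternative DNA-binding subunits, Arid1a was at 27.5 and 29.2 TPM and Arid1b at 9.20 and 10.4 TPM. Among 6 further acetyltransferases all were detected, led by Kat7 at 64.7 and 67.8 TPM, and among 12 further SWI/SNF genes 11 were, led by Smarce1 at 197 and 200.2 TPM. The exception was Actl6b, the subunit typical of neurons, at 0.33 and 1.40 TPM; the summed neuron markers were 36.9 and 69.2 TPM, also higher in replicate 2, and their part in this value was not tested.

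The remodeller Chd7, mutated in CHARGE syndrome, was at 25.1 and 23.9 TPM, and the insulator protein gene Ctcf at 109 and 108 TPM. Most Ctcf molecules were not assigned to its protein-coding transcript. A 528-nt noncoding transcript held 61.9% and 61.0%, while the transcript for the 736-residue protein held 32.9% and 33.1%. In reads the order is the other way round, with 3222 and 3459 estimated reads on the coding transcript and 706 and 743 on the noncoding one, because shares of molecules divide reads by length. The noncoding transcript has 30 nt of exon that no other Ctcf transcript contains. Chd7 likewise had 62.7% and 60.3% of molecules on an incomplete coding transcript. That transcript has 0 nt of exon that no other Chd7 transcript contains, so its share rests on sequence shared with others. Of the complete coding Chd7 transcripts, one for 941 residues held 20.15% and 21.85%, and one for 2986 residues 12.6% and 13.2%. Of 10 further remodeller, cohesin and insulator genes 9 were detected, led by the cohesin subunit Smc1a at 95.1 and 94.5 TPM. Ctcfl, the testis relative of Ctcf, was below 1 TPM in both libraries, at 0.09 and 0.17 TPM.

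Comparing relatives across the list, 20 of 22 pairs differed by more than the replicate error, beside 82.2% of all pairs of detected protein-coding genes, so a call alone says little about a pair and its size is given. A call needed differences of 1 sign in the 2 libraries, each of them past the 95th percentile of the log2 ratio between libraries at the level of the lower gene. That percentile was 0.92 between 1 and 3 TPM, 0.79 up to 10, 0.37 up to 30, 0.27 up to 100 and 0.25 above. The widest differences on the log2(TPM + 1) scale were Mbd3 over Mbd2 at 4.24 ± 0.260, Cbx6 over Cbx7 at 3.64 ± 0.125, Cbx2 over Cbx7 at 3.31 ± 0.0758, Hdac7 over Hdac9 at 3.02 ± 0.103, and Dnmt3a over Dnmt3b at 2.86 ± 0.110. Mta1 lay below Mta2 at -3.27 ± 0.00705 and Tet2 below Tet3 at -2.52 ± 0.0902. In posterior mean TPM the differences from Cbx7 were smaller, at 3.15 for Cbx6 and 2.79 for Cbx2. The 2 pairs not called were Hdac1 with Hdac2 and Kmt2a with Kmt2d. With 1 gene in several pairs (Dnmt3a, Cbx2, Cbx7 and each Tet gene), the 22 values are not independent of each other.

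**Figure D2:**
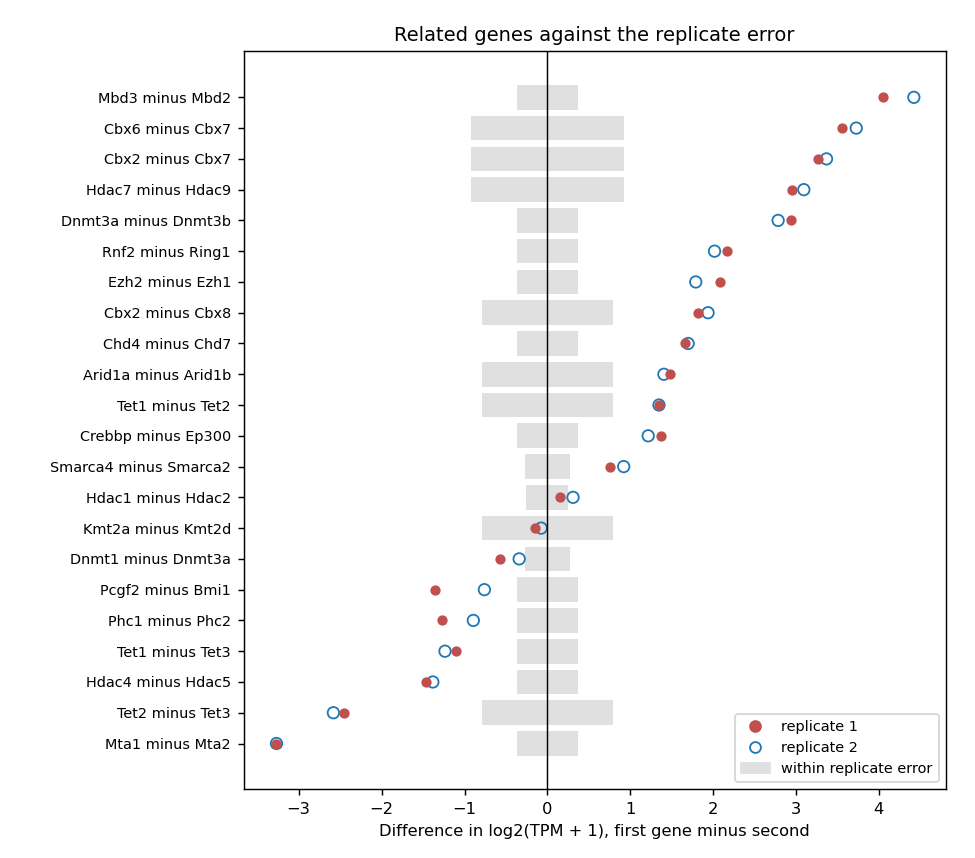
Difference in log2(TPM + 1) between related genes, first gene minus second, for replicate 1 (filled) and replicate 2 (open). Grey bars span the 95th percentile of the ratio between libraries at the level of the lower gene; only Hdac1 with Hdac2 and Kmt2a with Kmt2d have a point inside the bar.

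Between the 2 pools, none of the 55 genes with a mean of 100 or more reads differed 2-fold, beside 1.22% of 12770 protein-coding genes with such counts, and none differed 1.5-fold, beside 3.01% of those genes. The median absolute log2 ratio was 0.09 over the 55 detected genes, against 0.10 over all detected protein-coding genes, and 41 of the 55 were within 1.1-fold (74.5%, against 62.2%). These backgrounds were not matched for level, and the listed genes had the higher median TPM. Over all detected mouse genes the median absolute log2 ratio was 0.24 at 1 to 3 TPM and 0.08 at 30 to 100 TPM. What part level has in these shares was not tested. Replicate 2 was higher for 34 of the 55 and replicate 1 for 21; of all 13374 detected protein-coding genes, 55% were higher in replicate 2. Of the 55 genes, 4 differed by more than 1.2-fold, beside 15.5% of detected protein-coding genes: Bmi1 (log2 ratio of replicate 1 over replicate 2 of 0.32) and Mbd2 (0.29) were higher in replicate 1, and Dot1l (-0.32) and Pcgf2 (-0.31) higher in replicate 2. Over the same pools the adrenal marker sum was 3.82-fold higher in replicate 2 and the skeletal muscle sum 1.86-fold higher in replicate 1; what part such tissue has in these 4 genes was not tested.

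Several listed genes were spread over many transcripts. Of the 50 detected members with 2 or more annotated transcripts, 45 had the same top transcript in both libraries, beside 91.9% of such genes overall. A leading transcript, with 50% or more of the molecules in both libraries, was found for 30 of the 50, beside 71.4% of 9760 detected protein-coding genes. The median number of annotated transcripts was 6 for the listed genes and 4 for detected protein-coding genes. The top transcript differed between the pools for Suz12, Cbx8, Dnmt3a, Hdac5 and Kdm1a. For Suz12 the 718-residue form held 40.5% and 25.9% and the 741-residue form 29.3% and 35.8%. For Hdac5 the 1115-residue form held 23.0% and 12.9% and the 1102-residue form 21.6% and 32.4%. For Cbx8 noncoding transcripts of 789 and 533 nt changed places, the first holding 59.9% and 20.7% and the second 12.2% and 43.7%, on 84.4 and 29.6 and on 10.8 and 39.3 estimated reads.

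For Dnmt3a the order depends on the unit. The 689-residue products held 44.5% and 41.8% of molecules and the 908-residue products 25.2% and 28.9%, but the longer form received 6214 and 7150 reads against 3743 and 3630 for the shorter. The transcript of the longer form in the table is 9685 nt and those of the shorter are 5424 and 2328 nt, so dividing by length turns the order. The 5424-nt transcript has 0 nt of exon that no other Dnmt3a transcript contains, the 2328-nt one 16 nt and the 9685-nt one 28 nt. By contrast Ezh2 was led by its 746-residue product in both units, with 62.3% and 64.2% of molecules and 3238 and 3389 of its reads, and the 704-residue product held 8.42% and 8.17%.

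**Figure D3:**
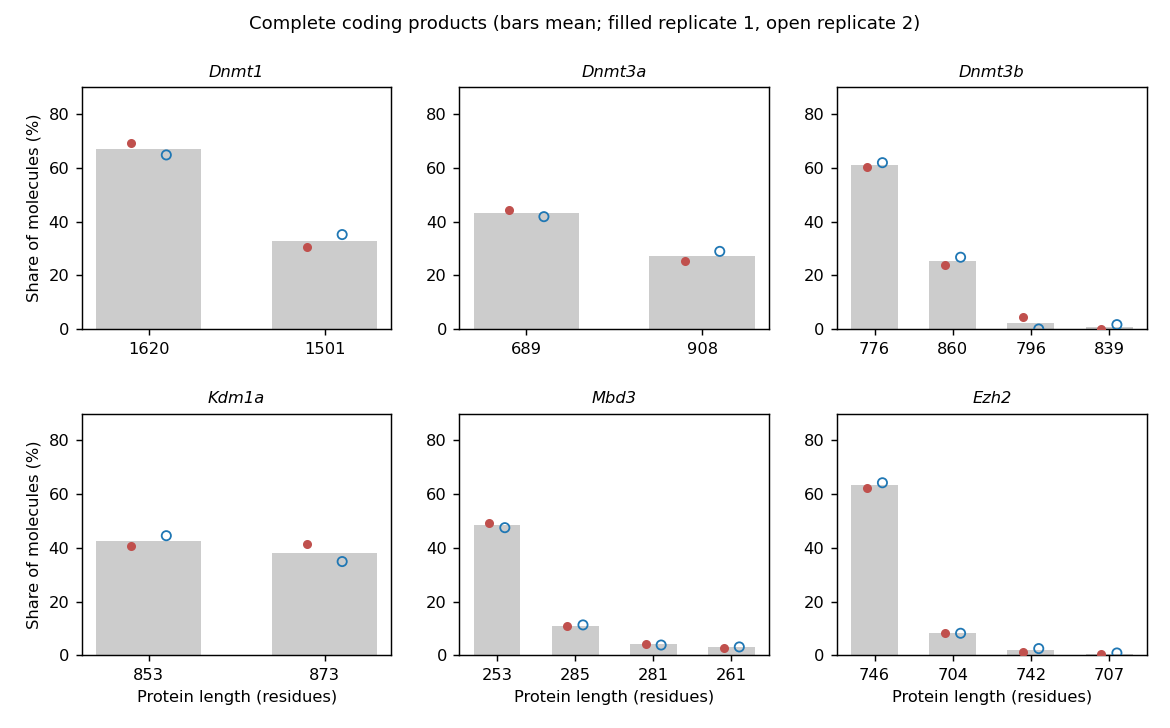
Share of each gene's estimated molecules on complete coding transcripts, grouped by protein length, for 6 genes; bars are means of the 2 libraries and points the single libraries. Dnmt3b is led by its 776-residue form, and the Kdm1a products change order between the libraries.

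Noncoding, decay and incomplete transcripts took a large part of the estimated molecules of several listed genes. The median share on transcripts annotated as protein-coding was 87.0% ± 0.820 over the 50 genes, against 92.2% ± 0.113 over all detected protein-coding genes with 2 or more transcripts. For 7 members the top transcript was of a type other than protein-coding in both libraries, beside 8.07% of such genes overall: Cbx8, Tet1, Tet3, Hdac7, Sirt1, Smarca2 and Ctcf. For Sirt1 and Smarca2 it was a transcript annotated for nonsense-mediated decay. On complete coding transcripts alone, 9 members had less than 50% in both libraries, beside 14.4% of the 9760 genes. They were the same genes without Hdac7 and with Hdac5, Ep300 and Chd7. By share of reads, which is not divided by length, only Sirt1 among them stayed below 50% in both libraries, at 16.4% and 21.5%. The complete coding Sirt1 transcript has 0 nt of exon of its own, so its share of reads is uncertain too. Smarca2 had 55.6% and 46.9% of its reads on complete coding transcripts, Chd7 54.2% and 57.0%, and the others more, such as Tet1 with 80.6% and 82.7%. Complete coding transcripts include those of short products, such as 236 residues for Smarca2 and 941 for Chd7, so this level is not that of the longest product. Ranked by complete coding level, Tet1 moved to place 50 of 56 from place 38 by gene level, Smarca2 to 35 from 18, Chd7 to 46 from 33 and Ctcf to 16 from 7. Hdac1, Hdac2 and Mbd3 were the top 3 under both measures. Dnmt1, Smarca4, Hdac2, Kmt2d and Cbx2 stood at the other end, with 97.47% or more of molecules on complete coding transcripts in each library.

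**Figure D4:**
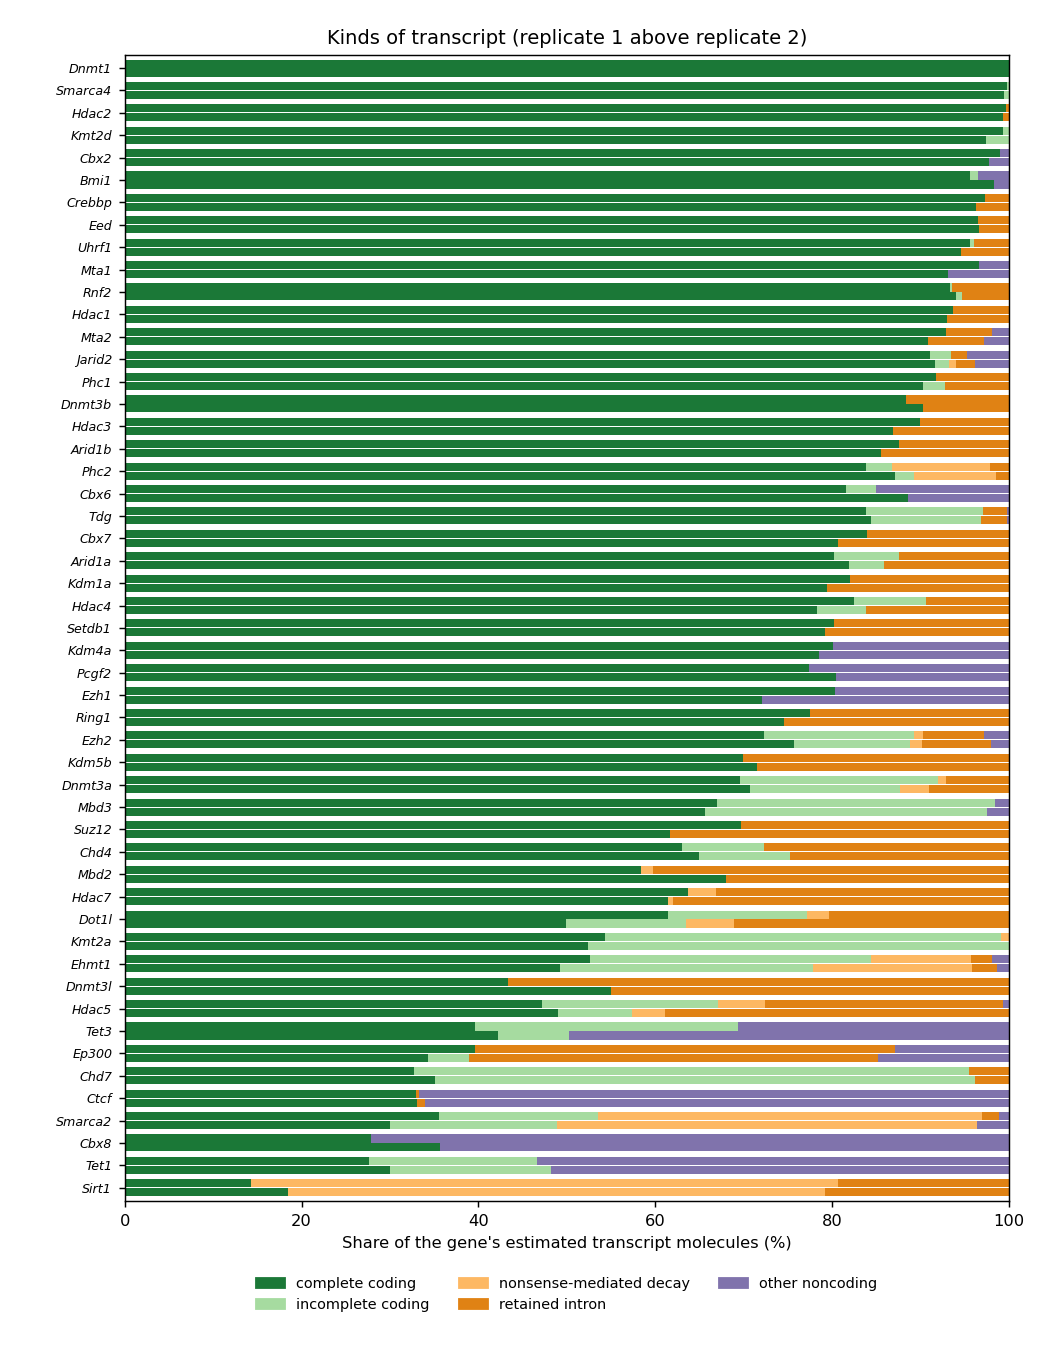
Share of each gene's molecules by kind of transcript, for listed genes with 2 or more annotated transcripts, ordered by the share on complete coding transcripts (green), with replicate 1 above replicate 2. Dnmt1 is entirely on complete coding transcripts, and Sirt1 has the smallest such share.

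**Figure D5:**
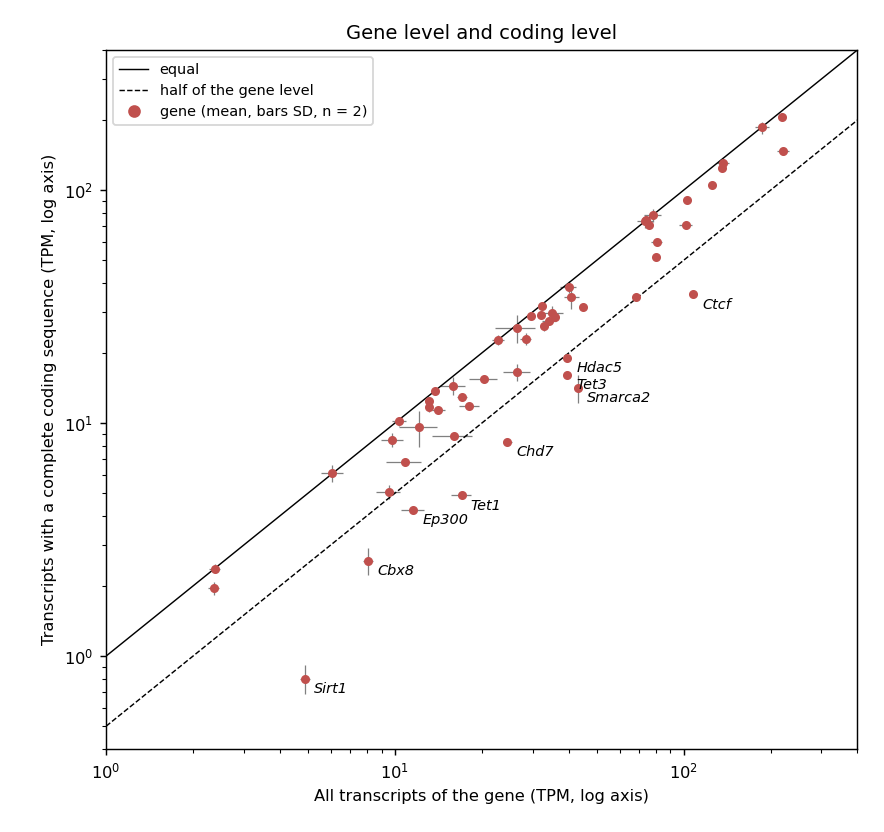
Mean level of all transcripts of a gene against that of its complete coding transcripts, both in TPM on log axes, for the 55 detected genes; bars are SD of the 2 libraries. The 9 named genes lie below the dashed line, where less than 50% of the gene level is on complete coding transcripts.

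Some values carry a known uncertainty from shared sequence. Counts were whole in both libraries for 43 genes and fractional in at least 1 library for 13: Eed, Suz12, Rnf2, Bmi1, Dnmt3a, Dnmt3b, Uhrf1, Tdg, Hdac1, Hdac4, Setdb1, Crebbp and Ctcf. Exons of 21 genes overlap another annotated gene, 15 of them on the opposite strand. Of these neighbours the most abundant was Cers2, which shares 75 nt with Setdb1 and stood at 139 and 146 TPM, and Trmt1l shares 158 nt with Rnf2 at 38.0 and 40.8 TPM. Transcripts of Ctcf and Gm5914 share 370 nt on opposite strands, and Gm5914 stood at 10.97 and 15.4 TPM.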

How the data were processed

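Total RNA-seq of 2 pools of embryonic kidney was analysed from a gene table and a transcript table per library. Reads were aligned to mm10 and quantified with GENCODE M4, per the text files deposited beside the tables; the sources used here name neither the quantifier nor its use of strand. The authors' expected counts estimate the reads of each feature and may be fractional. The deposited TPM values are scaled to a fixed sum per library, with spike-in RNAs taking 5.78% and 7.34%; the deposited FPKM values were used as an alternative. The deposited percent per transcript (share of a gene's molecules) was taken as deposited.

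The symbols, classes, coordinates and transcript types were read from GENCODE M21, also on mm10. Of 403 transcripts of the 56 genes all matched by identifier, and 366 kept their length in M21; 42462 of 43346 mouse genes matched. A complete coding transcript is one of type protein_coding with no missing start or end. CpG windows came from RefSeq. Library error covers counting and pool differences only.

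No test between groups was possible with 2 libraries in 1 group, and no p was computed. Thresholds were 1 TPM for detection, a mean of 100 counts with a ratio of 2, a pseudocount of 1, and the 95th percentile of the ratio between libraries in bins with edges at 1, 3, 10, 30 and 100 TPM. Of these, only the ratio of 2 between libraries was tested on simulated data, drawn with an assumed spread between libraries. The rule for pairs was not tested on simulated data. The tools were Python 3.11.15 with pandas 2.3.3, numpy 2.4.6 and scipy 1.17.1, and edgeR 4.0.16 and DESeq2 1.42.0 in R 4.3.3 for size factors only.

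The genes, the pairs and the lists were chosen with earlier results of these data known. All 56 genes are named, with values per library for the Polycomb, DNA methylation, demethylation and NuRD classes, for both genes of each pair and for the highest and lowest of each other class. Of the further pathway genes, those highest in a class or below 1 TPM in both libraries are named; Actl6b was named after its values were seen. Products are given for 15 genes and for any detected gene whose top transcript differed between libraries. Of 89 further pathway genes 88 matched and 86 were detected; Suv420h1 found no match and is not analysed here.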

Additional observations from a re-analysis of the deposited data

How the results depend on the processing

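The alternatives changed few calls. Detected genes numbered between 52 (5 TPM) and 56 (0.5 TPM, and the posterior mean TPM), and no listed gene differed 2-fold between libraries under TMM or DESeq2 scaling, rescaled TPM, lower count minima, or limits of 1.5-fold and 3-fold. Of 154 pair values under alternatives, 150 kept direction and call. Over complete coding transcripts, a measure added after seeing the data, Dnmt1 minus Dnmt3a was 0.0473 and Tet1 minus Tet2 was -0.26. Both were opposite in sign to the gene level and neither was called. Kmt2a minus Kmt2d became called, and 19 of 22 pairs were called. Hdac1 minus Hdac2 became called in replicate 2 alone. The median level of the 56 genes was 34.2 in TPM rescaled over nuclear genes, 20.7 in FPKM, 30.5 in posterior mean TPM and 22.6 over complete coding transcripts, and 30.7 to 31.0 in single libraries. The median absolute log2 ratio was 0.06 with TMM factors, 0.06 with DESeq2 size factors (0.0639 and 0.0636), and 0.0977 with rescaled TPM. A leading transcript was found for 14 genes at 70% and 37 at 40%, and for 31 to 35 in single libraries. The median share on coding transcripts was 95.8% by expected counts, 89.8% with decay transcripts counted as coding, 79.8% for complete coding transcripts alone (added after seeing the data), and 86.4% to 87.6% in single libraries. The 689-residue minus 908-residue share of Dnmt3a was -26.5 percentage points by expected counts, a reversal that follows from transcript length. No paired analysis was possible because both libraries belong to 1 group. Depth limits Dnmt3l, whose shares per transcript rest on 14 and 10 reads.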
